A study of Mus musculus with 15 samples.

Results

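The insulin-like growth factor (IGF) genes of the mouse embryonic pancreas were followed through 10 members, which are the ligands Igf1 and Igf2, the receptors Igf1r and Igf2r, and the binding protein genes Igfbp1, Igfbp2, Igfbp3, Igfbp4, Igfbp5 and Igfbp7. They were taken by symbol, as the rows of the deposited gene count table whose Ensembl identifier carries that symbol in the GENCODE M21 annotation. No value entered this rule, but the list of symbols was drawn up with earlier results of these data known. All 10 of 10 symbols were found among the 25292 genes of the table, and all 10 carried enough reads to be among the 16245 genes tested.

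IGF1 and IGF2 are secreted peptides that promote growth and survival of fetal tissues, mainly by activating the tyrosine kinase receptor IGF1R and, for IGF2, also the insulin receptor. IGF2R, the cation-independent mannose-6-phosphate receptor, takes IGF2 up for breakdown and does not carry a growth signal, while the secreted IGF binding proteins hold the ligands in the extracellular space and either restrain or present them to receptors. In the embryonic pancreas IGF2 is a known product of the mesenchyme and of the forming islets, and the gene for it is imprinted, with expression from the paternal allele.

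The study asked how sphingosine-1-phosphate (S1p), a signalling lipid, acts through its receptor S1pr2 on the developing pancreas. RNA was sequenced from 15 libraries in 5 groups of 3, each library from pooled organs or explants of mice of the C57/Bl6J strain. Whole pancreata were taken at 14.5 days post coitum (dpc) from wild-type (wt) embryos or from embryos labelled S1pr2 null, which carry the S1pr2 tm1Rlp allele, described by the study as a Neo cassette inserted into an exon of the gene. Explants of wild-type embryos, for which the study describes dorsal buds dissected at 14.5 dpc, were cultured on filters at the air-liquid interface (ALI) for 2 days in serum-free medium with N2 supplement, which contains insulin. These explants were left untreated or given the solvent (control), given 15 μM JTE013, an S1pr2 antagonist (JTE), or given 15 μM JTE013 and 50 ng/ml connective tissue growth factor (JTE + CTGF). The control explants therefore differ from the wt pancreata in culture, age and the part of the organ at once, and these cannot be told apart.

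The libraries held between 11402804 and 13828737 counted reads, and the biological coefficient of variation was 7.3%. S1pr2 itself had 762 to 772 normalised reads in the wt libraries and 1263 to 1458 in the libraries labelled S1pr2 null, a rise of 0.83 ± 0.07 (SE) on the log2 scale (edgeR adjusted p = 4.5e-07). A count for the whole gene does not show which of its exons were read, so it does not check the label, and the group is called the libraries labelled S1pr2 null. JTE 3 stood apart. Against JTE 1 and JTE 2 its counts gave a chi-square of 17.2 and 23.2 for each gene, where all other pairs within a group gave 2.34 to 10.2. Normalised reads are reads scaled to libraries of equal effective size, a log2 fold change is the fitted difference between 2 groups, and a gene was called higher or lower at an adjusted p below 0.05 over all genes tested.

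Levels were compared between genes per length of exon, in units of TPM (transcript reads per exon length, scaled to the same total in each library) computed from the exon length in the count table. In wt pancreata Igf2 stood first with a mean of 2399 ± 110 TPM (SD, n = 3), followed by Igfbp4 with 398 ± 33.5 TPM, Igfbp5 with 370 ± 35.7 TPM and Igf2r with 164 ± 7.55 TPM. Igfbp2 had 131 ± 9.74 TPM, Igfbp3 118 ± 10.3 TPM, Igf1 68.2 ± 6.48 TPM, Igfbp7 48.6 ± 2.56 TPM and Igf1r 46.0 ± 3.06 TPM, and Igfbp1 was last with 1.74 ± 0.475 TPM. The ranges over the wt libraries overlapped between Igfbp4 and Igfbp5, between Igfbp2 and Igfbp3 and between Igfbp7 and Igf1r, so these neighbours had no order beyond their spread. Igf2 was first and Igfbp1 last in all 5 groups. Of the 16791 exon bases that GENCODE M21 gives Igf1r, 26.7% are in the 4489 bases over which its reads were counted, whereas the other 9 members are covered in full, so most of the Igf1r transcript did not enter its count. Together the 10 genes held 0.770% ± 0.0307 of all reads in wt, 0.933% ± 0.00831 in the libraries labelled S1pr2 null, 0.669% ± 0.0552 in control, 0.651% ± 0.0863 in JTE and 0.566% ± 0.0307 in JTE + CTGF explants (SD, n = 3).

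**Figure D1:**
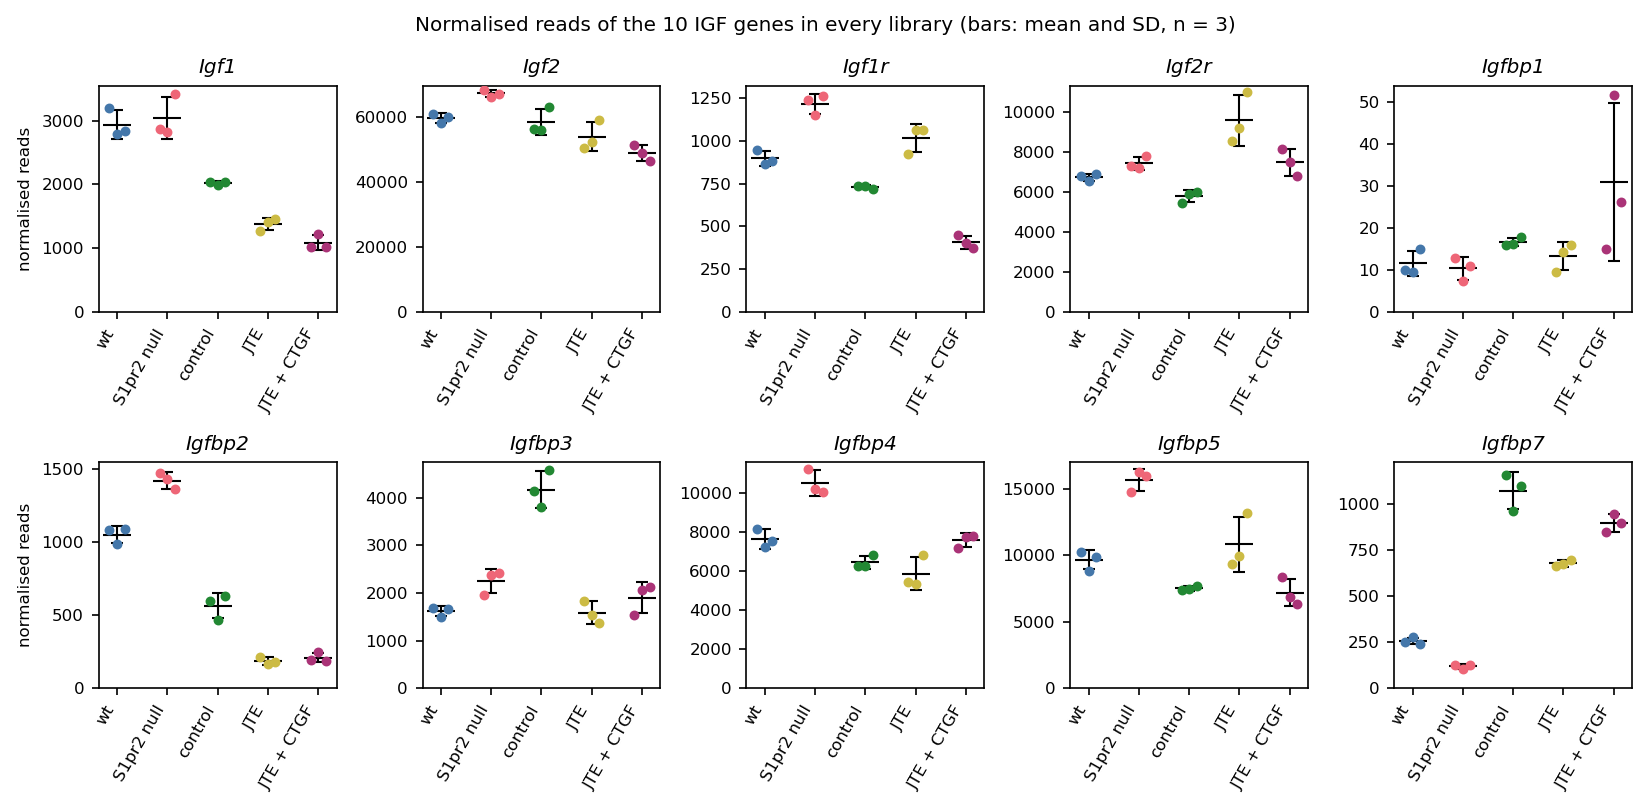
Normalised reads (vertical axes, from 0) of the 10 IGF genes in every library, with 1 point per library, the 5 groups side by side and a bar for the mean with its SD (n = 3). Igf1 lies lower in every explant library than in every fresh pancreas, Igf1r is lowest in the JTE + CTGF explants, Igfbp2 falls to 164 to 247 normalised reads in the explants given JTE013, and Igfbp3 and Igfbp7 are highest in the control explants.

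The ligands moved apart. Igf1 (chr10:87858265-87937042 in mm10, plus strand), the ligand of IGF1R that growth hormone controls after birth, had 3197, 2783 and 2829 normalised reads in wt and 2872, 2820.0 and 3419.7 in the libraries labelled S1pr2 null. It had 2041, 1983 and 2033 in control, 1264, 1411 and 1453 in JTE, and 1022, 1214 and 1019 in JTE + CTGF explants. The fresh groups overlapped, while the 3 explant groups followed each other downwards without overlap. Igf1 fell by 0.54 ± 0.08 on the log2 scale from wt to control (edgeR adjusted p = 2.5e-05), by 0.55 ± 0.08 with JTE against control (edgeR adjusted p = 3.43e-05), and by a further 0.34 ± 0.09 with CTGF added to JTE (edgeR adjusted p = 0.00607). Against control the JTE + CTGF explants were 1.86-fold lower. The difference between the libraries labelled S1pr2 null and wt was 0.05 on the log2 scale with a 95% interval of −0.12 to 0.22 (edgeR adjusted p = 0.703). In bulk tissue, fewer cells of a type that makes a transcript and less of it per cell cannot be told apart, here and for each gene that follows.

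Igf2 (chr7:142650766-142666816 in mm10, minus strand), the main fetal ligand, had 60873, 58124 and 60172 normalised reads in wt and 68493, 66290.4 and 67193 in the libraries labelled S1pr2 null. The explants had 56234, 55919 and 63015 in control, 50615, 52317 and 59071 in JTE, and 51450.3, 48873 and 46475 in JTE + CTGF. The JTE range overlapped its neighbours on either side, while the libraries labelled S1pr2 null all lay above the wt libraries and the JTE + CTGF explants all lay below the control explants. Relative to wt, Igf2 was 1.13-fold higher in the libraries labelled S1pr2 null (log2 0.17 ± 0.06, edgeR adjusted p = 0.0449), a call that was lost with upper-quartile scaling (adjusted p = 0.0736) and when any 1 of the 6 libraries compared, or JTE + CTGF 2, was left out (adjusted p from 0.054 to 0.142). It fell by 0.25 ± 0.06 on the log2 scale in JTE + CTGF against control (edgeR adjusted p = 0.0016). With CTGF added to JTE, Igf2 differed by −0.14 (edgeR adjusted p = 0.0879), and without JTE 1 by −0.19 (adjusted p = 0.043). With JTE alone the difference from control was −0.11 on the log2 scale with a 95% interval of −0.24 to 0.02 (edgeR adjusted p = 0.13), and without JTE 3 it was −0.18 with an adjusted p of 0.0116. Igf2 shares 98 exon bases with its antisense gene Igf2os, and since it was not stated whether the counting used the strand, reads there can belong to either.

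As Igf1 fell more than Igf2, the number of Igf2 reads for each Igf1 read was 20.4 ± 1.19 in wt, 22.3 ± 2.33 in the libraries labelled S1pr2 null, 28.9 ± 1.83 in control, 39.2 ± 1.92 in JTE and 45.4 ± 5.03 in JTE + CTGF explants (SD, n = 3). The JTE range of 37.1 to 40.7 lay above the whole control range of 27.6 to 31.0. The scale of the values bears on Igf2. On the TPM scale its mean was 2399 in wt and 1843 in control, while its fitted change was −0.03 on the log2 scale with a 95% interval of −0.16 to 0.10 (edgeR adjusted p = 0.668). Counts scaled by the library total alone (CPM), without the TMM factors of edgeR, placed the median tested gene at −0.17 from wt to control, a shift of −0.14 against the fit, and Igf2 at −0.17. Summed reads of 9 acinar enzyme and factor genes lay between 6349 and 10646 CPM in wt and between 45109 and 57834 CPM in control, and their part in that shift was not tested. No member had another sign on the CPM scale than in the fit, in any of the 5 comparisons.

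H19, the maternally expressed non-coding neighbour that shares the imprinting control of Igf2, did not differ between the libraries labelled S1pr2 null and wt beyond its spread (log2 −0.03 ± 0.05, edgeR adjusted p = 0.714). In explants H19 fell by 0.29 ± 0.05 with JTE (edgeR adjusted p = 0.0003) and by 0.42 ± 0.05 with JTE + CTGF (edgeR adjusted p = 4.4e-06), both against the same control libraries.

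Of the receptors, Igf1r (chr7:67952859-68226780 in mm10, plus strand), which carries the growth signal of both ligands, had 946, 866 and 881 normalised reads in wt and 1239, 1152 and 1264 in the libraries labelled S1pr2 null. It had 735, 739 and 719.6 in control, 921.5, 1066 and 1064 in JTE, and 448, 404 and 371 in JTE + CTGF explants. No pair of groups that was compared overlapped. Relative to wt, Igf1r was 1.36-fold higher in the libraries labelled S1pr2 null (log2 0.44 ± 0.07, edgeR adjusted p = 0.000159) and 1.39-fold higher with JTE than in control (log2 0.48 ± 0.07, edgeR adjusted p = 2.19e-05). With CTGF added it was 2.5-fold lower than with JTE alone (log2 −1.32 ± 0.07, edgeR adjusted p = 5.97e-09) and 1.79-fold lower than in control (log2 −0.84 ± 0.08, edgeR adjusted p = 7.02e-08). From wt to control it fell by 0.30 ± 0.07 on the log2 scale (edgeR adjusted p = 0.00147).

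Igf2r (chr17:12682406-12769664 in mm10, minus strand), the receptor that clears IGF2, had 6781, 6538 and 6871 normalised reads in wt, 7307, 7187.5 and 7802 in the libraries labelled S1pr2 null, and 5464.5, 5913.5 and 5998 in control. With JTE it had 8527, 9189.6 and 11016, and with JTE + CTGF 8159, 7477 and 6793, so the 3 explant groups were ordered control, JTE + CTGF and JTE without overlap. It was 1.65-fold higher with JTE than in control (log2 0.73 ± 0.08, edgeR adjusted p = 1.44e-06), 1.29-fold higher with JTE + CTGF than in control (log2 0.37 ± 0.08, edgeR adjusted p = 0.000858) and 1.28-fold lower with CTGF added than with JTE alone (log2 −0.36 ± 0.08, edgeR adjusted p = 0.00307). JTE 3 was the highest library, and without it the rise with JTE was 0.61 and the fall with CTGF 0.21 on the log2 scale, with adjusted p of 9.27e-07 and 0.0264. The libraries labelled S1pr2 null all lay above wt, but the difference of 0.14 on the log2 scale, with a 95% interval of −0.03 to 0.31, was not called (edgeR adjusted p = 0.212). From wt to control Igf2r fell by 0.22 ± 0.08 (edgeR adjusted p = 0.0304), a call lost without wt 1, wt 3 or control 1 (adjusted p from 0.0681 to 0.115).

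The receptor genes were set against each other by their reads, which describe RNA and not receptor protein. The reads were not scaled by exon length, and most of the Igf1r transcript was not counted. These ratios therefore compare groups and give no balance between the receptors. Against 100 reads of Insr, the insulin receptor gene, Igf1r had 100.3 ± 7.64 reads in wt, 128 ± 2.59 in the libraries labelled S1pr2 null, 76.5 ± 5.84 in control, 60.7 ± 3.21 in JTE and 35.0 ± 2.13 in JTE + CTGF explants (SD, n = 3). No 2 of these ranges overlapped. Against 100 Igf2r reads there were 13.3 ± 0.571 Igf1r reads in wt, 16.4 ± 0.495 in the libraries labelled S1pr2 null, 12.7 ± 0.731 in control, 10.7 ± 0.976 in JTE and 5.45 ± 0.0438 in JTE + CTGF explants. Per counted exon length, wt pancreata had means of 46.0 TPM for Igf1r, 21.4 TPM for Insr and 164 TPM for Igf2r. Insr itself was higher with JTE than in control by 0.80 ± 0.08 on the log2 scale (edgeR adjusted p = 3.02e-07), so that with JTE all 3 receptor genes rose and Igf1r rose least of them in the fitted values.

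The 6 binding protein genes include 2 pairs of neighbours. Igfbp2 and Igfbp5 lie on chromosome 1 in opposite orientation with 5457 bases between them, and Igfbp1 and Igfbp3 on chromosome 11 with 3539 bases between them, in each case with no annotated gene in the gap. Their promoters are shown because the calls of these neighbours differed with JTE against control. There Igfbp2 was lower and Igfbp5 higher, and Igfbp3 was lower while Igfbp1 was not called. In the libraries labelled S1pr2 null Igfbp2 and Igfbp5 were both higher, and from wt to control both were lower. Igfbp1 had too few reads to say whether it moved apart from Igfbp3. RefSeq gives Igfbp2 another start downstream, and the window shown is that of its upstream start. Each sequence is 300 bases in RefSeq for GRCm38.p6, the reference behind mm10, running 5′ to 3′ on the strand of the gene from 250 bases before its start to 50 bases from it. Capitals mark CAAAACA, a core of the insulin response element bound by FoxO factors, and GGGCGG, the GC box, each searched on both strands. The other motifs searched, GTAAACA for FoxO and TGATGNAAN for ATF4 with C/EBP, had no match in any of the 14 windows of the 10 members. The GC box was added to the search after the values were known.
Igfbp1, chr11:7197537-7197836: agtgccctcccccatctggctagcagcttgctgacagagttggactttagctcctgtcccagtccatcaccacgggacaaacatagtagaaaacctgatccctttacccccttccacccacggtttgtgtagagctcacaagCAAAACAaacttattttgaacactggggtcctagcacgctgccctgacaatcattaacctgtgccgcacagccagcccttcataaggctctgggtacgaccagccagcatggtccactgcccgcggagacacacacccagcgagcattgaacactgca
Igfbp3, chr11:7213874-7214173: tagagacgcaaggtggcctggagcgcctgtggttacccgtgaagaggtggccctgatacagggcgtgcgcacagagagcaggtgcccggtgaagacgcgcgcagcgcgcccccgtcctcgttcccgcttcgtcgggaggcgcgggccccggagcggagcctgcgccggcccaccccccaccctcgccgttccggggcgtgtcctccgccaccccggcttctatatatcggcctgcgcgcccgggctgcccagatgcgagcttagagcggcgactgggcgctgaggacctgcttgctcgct
Igfbp2, chr1:72824230-72824529: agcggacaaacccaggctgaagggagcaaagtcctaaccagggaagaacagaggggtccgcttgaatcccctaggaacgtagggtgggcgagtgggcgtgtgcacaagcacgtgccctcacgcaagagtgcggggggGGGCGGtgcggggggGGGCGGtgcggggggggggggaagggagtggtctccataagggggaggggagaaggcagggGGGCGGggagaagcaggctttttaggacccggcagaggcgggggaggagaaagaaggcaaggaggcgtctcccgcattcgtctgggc
Igfbp5, chr1:72874816-72875115: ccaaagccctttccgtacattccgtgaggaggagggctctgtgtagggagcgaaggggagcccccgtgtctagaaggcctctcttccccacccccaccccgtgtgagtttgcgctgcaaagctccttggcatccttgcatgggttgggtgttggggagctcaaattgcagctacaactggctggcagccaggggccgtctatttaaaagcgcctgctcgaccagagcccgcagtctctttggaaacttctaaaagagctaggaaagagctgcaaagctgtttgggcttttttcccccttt
Igfbp1 was the only member with CAAAACA in a window, a motif held by 6.28% of the 32851 promoter windows of the RefSeq table. The Igfbp2 window shown held GGGCGG 3 times and that of the downstream start (chr1:72825137-72825436, 57.3% G and C) did not hold it, where 35.7% of all windows hold it at least once, and the Igfbp3 and Igfbp5 windows held none of these motifs. The Igfbp1 and Igfbp5 windows had 54.3% and 56.3% G and C bases, near the median of all windows of 52.7%, and the Igfbp2 and Igfbp3 windows shown 67.0% and 71.7%. A match or its absence is a description of these letters and says nothing about binding.

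Igfbp2 (chr1:72824503-72852474 in mm10), a binding protein of fetal tissues and serum, had 1082, 988 and 1089.5 normalised reads in wt and 1477, 1433 and 1363 in the libraries labelled S1pr2 null. It had 598, 468.5 and 632 in control, 215, 164 and 180.4 in JTE, and 192, 247 and 189.5 in JTE + CTGF explants. All fresh libraries lay above all control explants, which lay above all explants given JTE013, and the JTE and JTE + CTGF ranges overlapped. Igfbp2 was 3.04-fold lower with JTE than in control (log2 −1.60 ± 0.12, edgeR adjusted p = 1.3e-08), the largest change of the 10 members in that comparison, and 2.7-fold lower with JTE + CTGF (log2 −1.43 ± 0.12, edgeR adjusted p = 3.34e-08). Between JTE + CTGF and JTE it differed by 0.17 on the log2 scale with a 95% interval of −0.11 to 0.46 (edgeR adjusted p = 0.369). In the libraries labelled S1pr2 null it was 1.35-fold higher than in wt (log2 0.43 ± 0.09, edgeR adjusted p = 0.00284), and in control 1.86-fold lower than in wt (log2 −0.90 ± 0.10, edgeR adjusted p = 9.41e-07).

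Igfbp3 (chr11:7206086-7213923 in mm10), the main carrier of IGFs in adult serum, had 1684, 1490.3 and 1660.1 normalised reads in wt, 1967, 2371 and 2425 in the libraries labelled S1pr2 null, and 4137, 3792 and 4575 in control. With JTE it had 1837, 1547 and 1369, and with JTE + CTGF 1532, 2059 and 2115.5. The control explants stood above every other library, and the explants given JTE013 overlapped the fresh wt pancreata. Igfbp3 was 2.59-fold higher in control than in wt (log2 1.37 ± 0.12, edgeR adjusted p = 5.01e-08), 2.63-fold lower with JTE than in control (log2 −1.40 ± 0.12, edgeR adjusted p = 7.51e-08) and 2.19-fold lower with JTE + CTGF than in control (log2 −1.13 ± 0.12, edgeR adjusted p = 4.55e-07). With CTGF added to JTE it differed by 0.26 on the log2 scale with a 95% interval of 0.01 to 0.52 (edgeR adjusted p = 0.111), and it was called without JTE 1 (log2 0.38, adjusted p = 0.0345), without JTE + CTGF 1 (log2 0.40, adjusted p = 0.0139) and with no filter on low counts (adjusted p = 0.0122). In the libraries labelled S1pr2 null it was 1.4-fold higher than in wt (log2 0.48 ± 0.12, edgeR adjusted p = 0.00654).

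Igfbp4 (chr11:99041244-99054392 in mm10), which restrains IGFs until it is cut by the protease PAPP-A, had 8169, 7205.5 and 7523 normalised reads in wt and 11237, 10199 and 10038 in the libraries labelled S1pr2 null. Control explants had 6242, 6230.2 and 6839, JTE 5435, 5331 and 6826, and JTE + CTGF 7154, 7745 and 7796. The JTE libraries overlapped control through JTE 3, and the JTE + CTGF libraries lay above both. Relative to wt, Igfbp4 was 1.37-fold higher in the libraries labelled S1pr2 null (log2 0.46 ± 0.08, edgeR adjusted p = 0.000601), and it was 1.29-fold higher with CTGF added than with JTE alone (log2 0.37 ± 0.08, edgeR adjusted p = 0.00289). The difference between JTE and control was −0.13 with a 95% interval of −0.31 to 0.04 (edgeR adjusted p = 0.184), and without JTE 3 it was −0.26 (adjusted p = 0.00444). The rise with JTE + CTGF against control (log2 0.23 ± 0.08, edgeR adjusted p = 0.0214) was lost without control 1, control 2, JTE + CTGF 2 or JTE + CTGF 3 (adjusted p from 0.0612 to 0.0701). The fall from wt to control (log2 −0.25 ± 0.08, edgeR adjusted p = 0.0168) was lost without wt 1, control 1 or control 2 (adjusted p from 0.056 to 0.082).

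Igfbp5 (chr1:72857932-72874884 in mm10), a matrix-bound binding protein, had 10243, 8844 and 9884 normalised reads in wt and 14753, 16252 and 15982 in the libraries labelled S1pr2 null. It had 7378, 7457 and 7726 in control, 9343, 9926 and 13214 in JTE, and 8353, 6899 and 6345 in JTE + CTGF explants. The libraries labelled S1pr2 null stood above all others, JTE lay above control, and JTE + CTGF spread around control. From wt to the libraries labelled S1pr2 null Igfbp5 rose 1.62-fold (log2 0.70 ± 0.11, edgeR adjusted p = 0.00022). It was 1.44-fold higher with JTE than in control (log2 0.53 ± 0.11, edgeR adjusted p = 0.0007), where JTE 3 was far above the others and the value without it was 0.36 (adjusted p = 0.00203). With CTGF added it was 1.5-fold lower than with JTE alone (log2 −0.59 ± 0.11, edgeR adjusted p = 0.000694), and without JTE 3 the difference was −0.38 (adjusted p = 0.00248). Against control JTE + CTGF differed by −0.06 with a 95% interval of −0.30 to 0.17 (edgeR adjusted p = 0.64), and control was 1.28-fold lower than wt (log2 −0.36 ± 0.11, edgeR adjusted p = 0.00963).

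Igfbp7 (chr5:77349240-77408045 in mm10, minus strand), a related secreted protein with weak affinity for IGFs, had 250.3, 278 and 242 normalised reads in wt and 129, 104 and 126 in the libraries labelled S1pr2 null. The explants had 1159, 963 and 1099 in control, 662, 677 and 698.5 in JTE, and 849.5, 948 and 901 in JTE + CTGF. No compared groups overlapped, and every explant library held more than every fresh pancreas. Igfbp7 was the member with the largest change between control and wt, 4.18-fold higher (log2 2.06 ± 0.08, edgeR adjusted p = 2.34e-12), and the only member that was lower in the libraries labelled S1pr2 null, by 2.14-fold (log2 −1.10 ± 0.10, edgeR adjusted p = 9.66e-07). It was 1.58-fold lower with JTE than in control (log2 −0.66 ± 0.07, edgeR adjusted p = 1.48e-06) and 1.32-fold higher with CTGF added than with JTE alone (log2 0.40 ± 0.08, edgeR adjusted p = 0.000657), and stayed 1.19-fold lower than in control (log2 −0.25 ± 0.07, edgeR adjusted p = 0.00636). It shares 85 exon bases with Polr2b on the other strand, where reads can belong to either gene.

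Igfbp1 (chr11:7197782-7202546 in mm10), a binding protein that the liver secretes and that insulin represses, was near the lower end of what could be measured. Its raw reads were 11, 10 and 16 in wt, 13, 8 and 13 in the libraries labelled S1pr2 null, 15, 16 and 17 in control, 9, 14 and 17 in JTE, and 13, 45 and 22 in JTE + CTGF explants. It was called higher with JTE + CTGF than in control (log2 0.89 ± 0.36, edgeR adjusted p = 0.0416) and than with JTE (log2 1.21 ± 0.37, edgeR adjusted p = 0.0212), although the groups overlapped in each case. Without JTE + CTGF 2 these values were 0.30 and 0.61, with adjusted p of 0.461 and 0.21, so the calls rest on that library. DESeq2 did not make the first call (adjusted p = 0.0927), nor did the fit without any 1 of the control libraries (adjusted p from 0.0669 to 0.0896), and the second was lost without JTE 1 (adjusted p = 0.0792). Both were lost in a fit of only the libraries compared (adjusted p = 0.0695 and 0.0737). The same library, JTE + CTGF 2, held 90.6 CPM of 8 liver genes, where JTE + CTGF 1 and 3 held 12.3 and 12.7 and the JTE libraries 12.2 to 12.9. Its Alb reads were 237 against 23 and 17, and its Afp reads 682 against 69 and 63. The same 8 genes held 78.7 to 150.7 CPM in wt, 60.45 to 74.65 in the libraries labelled S1pr2 null and 44.8 to 56.9 in control. In wt 3 there were 416 Alb and 1060 Afp reads beside 16 reads of Igfbp1. The part of the liver reads in the Igfbp1 values was not tested.

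Because the binding proteins changed by different amounts, their make-up changed. In wt pancreata Igfbp4 made up 39.0% ± 0.871 and Igfbp5 36.3% ± 0.514 of the summed TPM of Igfbp1 to Igfbp5, with 12.9% ± 0.345 for Igfbp2 and 11.6% ± 0.191 for Igfbp3 (SD, n = 3). Igfbp5 had the largest mean share in the libraries labelled S1pr2 null, with 40.2% ± 1.79, all above the wt range, followed by Igfbp4 with 36.7% ± 2.48, whose range overlapped that of Igfbp5, Igfbp2 with 11.9% ± 0.497, all below the wt range, and Igfbp3 with 11.1% ± 1.19. The sum was 1551 ± 42.8 TPM against 1019 ± 87.4 TPM in wt. In control explants Igfbp3 had a share of 30.5% ± 1.06, and in JTE explants 13.8% ± 3.34. With JTE the share of Igfbp5 was 47.9% ± 3.38 and that of Igfbp2 2.73% ± 0.54, and with JTE + CTGF the largest share was that of Igfbp4 with 46.9% ± 1.99. Set against the ligands, the sum of Igfbp1 to Igfbp5 per 100 TPM of Igf1 and Igf2 was 41.2 ± 1.65 in wt, 53.7 ± 1.38 in the libraries labelled S1pr2 null, 41.9 ± 0.815 in control, 39.0 ± 1.9 in JTE and 42.3 ± 2.23 in JTE + CTGF explants. The libraries labelled S1pr2 null, from 52.5 to 55.2, stood above all others on this ratio, and the remaining 4 groups lay between 37.2 and 44.0.

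**Figure D2:**
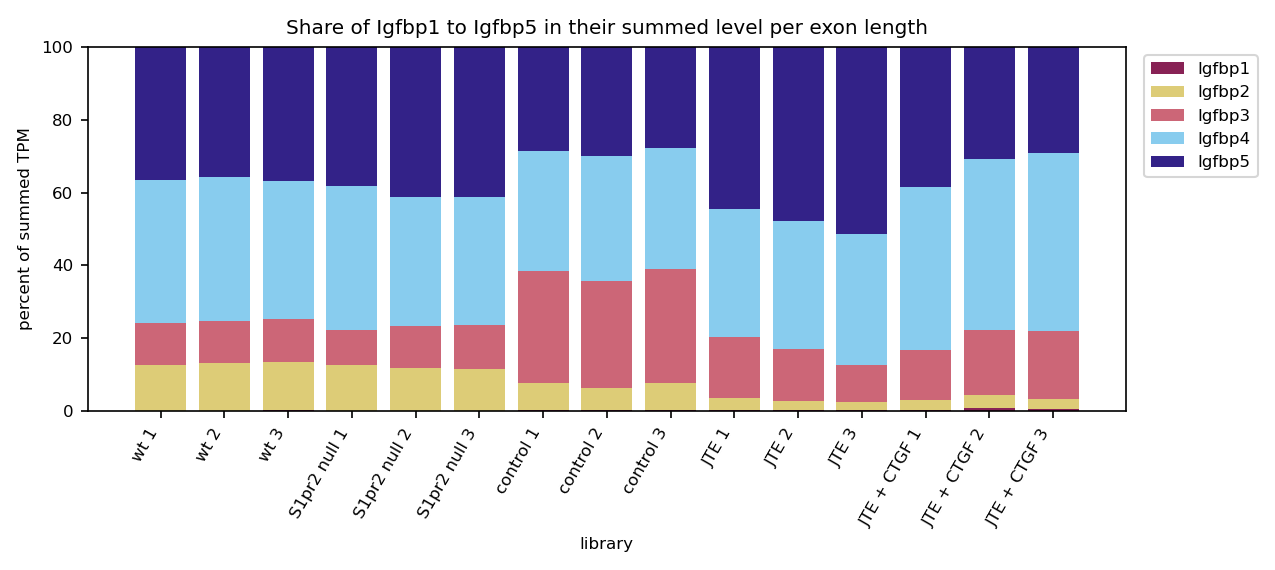
Share of Igfbp1, Igfbp2, Igfbp3, Igfbp4 and Igfbp5 in percent of their summed TPM (vertical axis) in each of the 15 libraries (horizontal axis), as stacked bars. The share of Igfbp3 is 29.4% to 31.4% in the control explants and 10.2% to 16.8% in the JTE explants, while that of Igfbp5 is 44.5% to 51.3% in the JTE explants.

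Counted over the 10 genes, 6 rose and 1 fell from wt to the libraries labelled S1pr2 null, where 12.6% of all genes tested were called higher and 13.3% lower. The higher genes were Igf2, Igf1r, Igfbp2, Igfbp3, Igfbp4 and Igfbp5, and the median of the 10 log2 fold changes was 0.30 against −0.01 over all genes. With JTE against control, 3 members were higher and 4 lower, beside 25.9% and 26.2% of all genes. With JTE + CTGF against the same control libraries, 3 were higher and 6 lower, beside 28.1% and 33.0%. With CTGF added to JTE, 3 were higher and 4 lower, beside 13.6% and 16.8%. From wt to control, 2 were higher and 6 lower, beside 28.5% and 29.3%. Medians of the members were −0.22 with JTE, −0.25 with JTE + CTGF against control, 0.01 with CTGF added to JTE and −0.23 from wt to control, and over all genes they were between −0.03 and 0.00. Comparisons that share a group, such as JTE and JTE + CTGF against the same control explants, are not independent of each other.

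**Figure D3:**
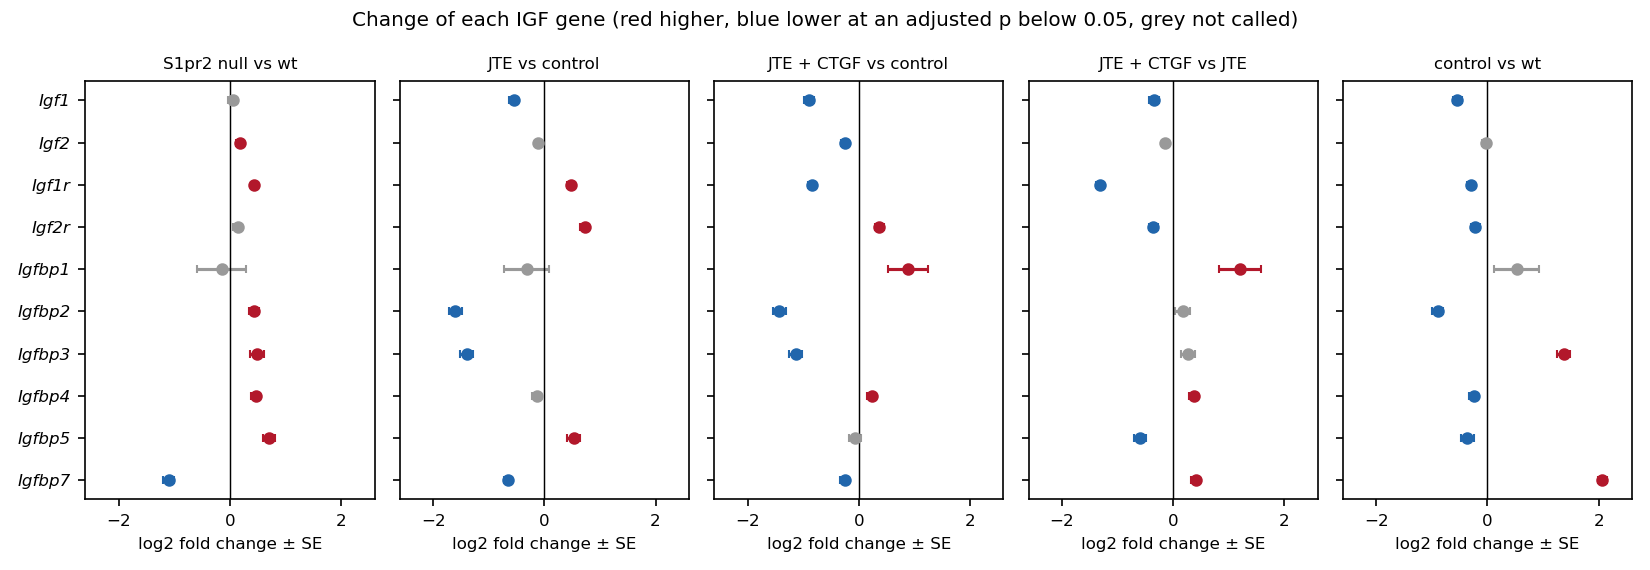
Fitted log2 fold change with its SE (horizontal axes) of each of the 10 IGF genes (rows) in the 5 comparisons (panels), red where higher, blue where lower and grey where not called at an adjusted p below 0.05. Igfbp2 and Igfbp3 lie right of 0 in the first panel, at 0.43 and 0.48, and left of it with JTE, at −1.60 and −1.40, and Igf1r changes side between JTE and JTE + CTGF.

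The antagonist and the label were compared through the difference of the 2 changes, which share no library. Called at an adjusted p below 0.05 in the fit over all genes, 2 members had a higher and 5 a lower change with JTE than with the label, beside 21.5% of all genes in either direction. Igfbp2 and Igfbp3 were higher with the label and lower with JTE, with differences of −2.04 ± 0.15 and −1.88 ± 0.17 on the log2 scale (edgeR adjusted p = 4.05e-08 and 3.26e-07). Igf1 differed by −0.60 ± 0.12 (edgeR adjusted p = 0.00054) and Igfbp4 by −0.59 ± 0.12 (edgeR adjusted p = 0.000616), while Igf2 differed by −0.29 ± 0.09 (edgeR adjusted p = 0.0127). Igf2r rose more with JTE, by 0.58 ± 0.11 (edgeR adjusted p = 0.000632), and Igfbp7, lower in both, fell less, by 0.44 ± 0.12 (edgeR adjusted p = 0.00908). Igf1r was called higher in both comparisons and Igfbp5 likewise. Their differences were 0.04 with a 95% interval of −0.17 to 0.24 and −0.17 with an interval of −0.50 to 0.16, and without JTE 3 that of Igfbp5 was −0.34 with an adjusted p of 0.0239. The fresh pancreata and the explants also differ in culture, age and the part of the organ, so the antagonist and the setting in which it was used cannot be told apart here.

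**Figure D4:**
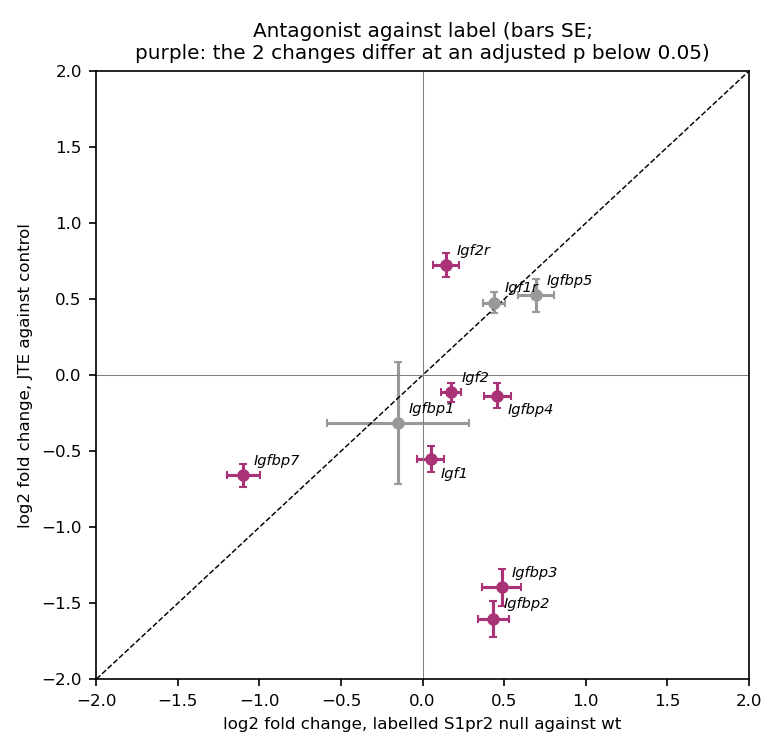
Log2 fold change of each IGF gene with JTE against control (vertical axis) and in the libraries labelled S1pr2 null against wt (horizontal axis), with SE bars and a dashed line where both are equal. Igf1r and Igfbp5 lie near the line, while Igfbp2 and Igfbp3 lie at the lower right with a rise on the horizontal and a fall on the vertical axis, and 7 of the 10 genes are marked as different.

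The difference between JTE + CTGF and JTE explants went with exon length over all tested genes. Over all tested genes the median log2 fold change of JTE + CTGF against JTE was 0.15 for genes with up to 1000 exon bases, 0.15 from 1000 to 2000, 0.06 from 2000 to 4000, −0.09 from 4000 to 8000 and −0.32 above 8000 bases. Against control the same ranges gave 0.11, 0.06, 0.02, −0.08 and −0.26. Igf1, with 9904 exon bases, and Igf2r, with 9438, fell by 0.34 and 0.36 with CTGF added, near the median of their length range, in which 58.4% of genes were called lower. Igf1r fell by 1.32 with 4489 counted exon bases, and 16791 in GENCODE M21, and Igfbp4, of nearly the same counted length, rose by 0.37. Igfbp7, with 1213 bases, rose by 0.40, and Igfbp5, with 6006 bases, fell by 0.59. In the libraries labelled S1pr2 null against wt the order of the medians was the opposite, from −0.08 for the shortest to 0.10 for the longest genes, of which 27.5% were called higher. The source of this order by length, and its part in these values, were not tested. The question of length was raised after the values were seen.

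**Figure D5:**
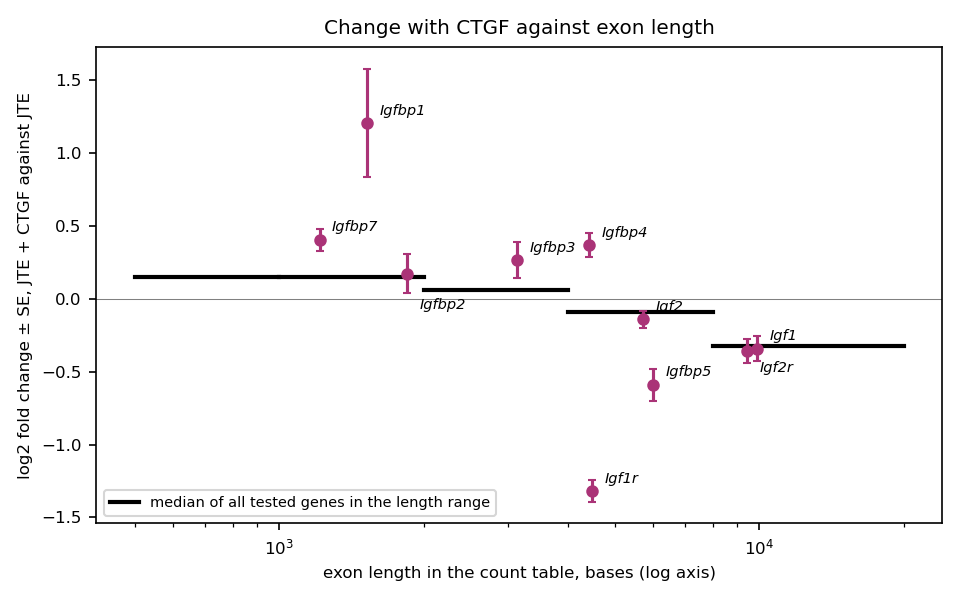
Log2 fold change with SE of JTE + CTGF against JTE (vertical axis) of the 10 IGF genes against the exon length in the count table (horizontal log axis), with black lines for the median of all tested genes in each length range. Igf1 and Igf2r lie on the line of the longest genes at −0.32. Igf1r, at −1.32, lies far below the line of its counted length at −0.09. It also lies below the line of the longest genes, the range of its 16791 exon bases in GENCODE M21.

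Other genes of the IGF axis were followed as a list of 18 that holds further binding proteins, receptors, proteases, protease inhibitors and RNA binding proteins of Igf2 mRNA. All 18 were tested. With JTE against control 6 were higher and 9 lower, beside 25.9% and 26.2% of all genes. The largest rise was that of Stc2, which encodes stanniocalcin 2, an inhibitor of the PAPP-A proteases. Stc2 had 487, 555 and 429 normalised reads in control and 2771, 2629 and 2374 in JTE explants, a rise of 2.40 ± 0.10 on the log2 scale (edgeR adjusted p = 1.38e-11), and it rose by 2.20 ± 0.10 with JTE + CTGF (edgeR adjusted p = 2.95e-11). Htra1, a secreted protease that cuts IGF binding proteins, rose by 1.20 ± 0.06 with JTE (edgeR adjusted p = 1.86e-10). Insrr, the insulin receptor-related receptor, fell by 1.46 ± 0.14 (edgeR adjusted p = 2.35e-07), and Pappa2, a protease for binding proteins, fell by 1.30 ± 0.17 (edgeR adjusted p = 8.06e-06). Pappa itself was at 327 to 378 normalised reads in control and 311 to 640 in JTE and was not called (log2 0.37 ± 0.19, edgeR adjusted p = 0.116). With JTE + CTGF against control 4 of the 18 were higher and 10 lower, beside 28.1% and 33.0% of all genes. With CTGF added to JTE none was higher and 6 were lower, beside 13.6% and 16.8%. Among these 6, Plag1, a transcription factor that activates Igf2, fell by 0.87 ± 0.13 (edgeR adjusted p = 8.82e-05), and Insr by 0.52 ± 0.08 (edgeR adjusted p = 0.000101).

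From wt to the libraries labelled S1pr2 null 6 of the 18 rose and 6 fell, beside 12.6% and 13.3% of all genes. Hmga2, a chromatin factor that acts upstream of Igf2bp2, rose by 0.78 ± 0.08 on the log2 scale (edgeR adjusted p = 1.67e-06) and Kazald1, a gene related to the binding proteins, by 1.16 ± 0.24 (edgeR adjusted p = 0.00202). Kazald1 had 96.3 to 118 normalised reads in wt and 157, 184 and 363 in the libraries labelled S1pr2 null, the last of which stood apart. Igfals, which encodes the third partner of serum IGF complexes, had 89.1 to 95.8 normalised reads in wt and 21.03 to 36.3 in the libraries labelled S1pr2 null, a fall of 1.8 ± 0.31 (edgeR adjusted p = 0.000483). Igfbp6, a binding protein outside the members, had 58.2 to 62.3 normalised reads in wt and 32.3 to 46.3 in the libraries labelled S1pr2 null. There Igfbp6 fell by 0.58 ± 0.20 on the log2 scale (edgeR adjusted p = 0.0457). With JTE against control it fell by 1.49 ± 0.24 (edgeR adjusted p = 6.03e-05). From wt to control 7 were higher and 7 lower, beside 28.5% and 29.3% of all genes. Stc1 had the largest rise (log2 2.40 ± 0.10, edgeR adjusted p = 5.65e-12) and Hmga2 the largest fall (log2 −2.09 ± 0.08, edgeR adjusted p = 2.34e-12). In the difference between antagonist and label 5 were higher and 7 lower, beside 21.5% of all genes in either direction.

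Genes of the signalling chain behind the receptors, a list of 34 from Irs1 to Gsk3b, gave 9 higher, 1 lower and 24 not called in the libraries labelled S1pr2 null. Irs1, the docking protein of IGF1R, rose there by 0.48 ± 0.08 on the log2 scale (edgeR adjusted p = 0.000529). Grb14 was the 1 that fell, by 0.42 ± 0.12 (edgeR adjusted p = 0.015). All genes tested gave 12.6% higher and 13.3% lower. With JTE against control 9 were higher and 6 lower, beside 25.9% and 26.2% of all genes, and Pik3r3, a regulatory subunit of phosphoinositide 3-kinase, fell by 1.38 ± 0.08 (edgeR adjusted p = 1.22e-09). Next in size, Grb14 fell by 0.60 ± 0.12 (edgeR adjusted p = 0.000445) and Tsc1 rose by 0.52 ± 0.08 (edgeR adjusted p = 3.13e-05). With JTE + CTGF against control 5 were higher and 18 lower, beside 28.1% and 33.0%. With CTGF added to JTE, beside 13.6% and 16.8%, 1 was higher and 19 were lower. Among those with over 100 normalised reads in either group the largest falls were those of Irs2 with 0.69 ± 0.13 (edgeR adjusted p = 0.000977), Pik3r1 with 0.59 ± 0.06 (edgeR adjusted p = 1.35e-06) and Irs1 with 0.55 ± 0.10 (edgeR adjusted p = 0.000469). The median of the 34 in that comparison was −0.19 against 0.00 over all genes. Of all genes with over 8000 exon bases 58.4% were called lower there, and 27.5% higher in the libraries labelled S1pr2 null. The part of exon length in the counts of this list was not tested. From wt to control 14 were higher and 7 lower, beside 28.5% and 29.3%, and in the difference between antagonist and label 3 were higher and 8 lower, beside 21.5% each. Of 16 known target genes of FoxO factors, which insulin and IGF signalling hold out of the nucleus, 13 were tested. With JTE 4 were higher and 5 lower, beside 25.9% and 26.2% of all genes. Klf15 (log2 1.62 ± 0.11, edgeR adjusted p = 5.25e-09) and Gadd45a (log2 0.95 ± 0.10, edgeR adjusted p = 1.18e-06) were among the 4 that rose, while the 5 that fell are not named here. The list shares Irs2 with the signalling list and Insr with the IGF axis list. The median of the 13 with JTE was −0.12 against 0.00 over all genes. The same list had 2 higher and 3 lower in the libraries labelled S1pr2 null, beside 12.6% and 13.3%. It had 4 and 6 with JTE + CTGF against control, beside 28.1% and 33.0%. With CTGF added to JTE it had 2 and 3, beside 13.6% and 16.8%. It had 6 and 2 from wt to control, beside 28.5% and 29.3%. In the difference between antagonist and label it had 4 and 5, beside 21.5% each.

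Markers of the cell types in the tissue moved in the same comparisons. Of all genes tested, 12.6% were called higher and 13.3% lower with the label, and 25.9% and 26.2% with JTE. The shares were 28.1% and 33.0% with JTE + CTGF against control and 13.6% and 16.8% with CTGF added to JTE. From wt to control they were 28.5% and 29.3%. Krt19 is in both the epithelium and the mesothelium list. In the libraries labelled S1pr2 null 11 of 12 epithelium markers, 7 of 8 endocrine markers and 7 of 8 tested acinar markers were lower than in wt, with summed levels of 3174 to 3445 and 2321 to 2431 CPM for the epithelium, 2414 to 2678 and 1238 to 1378 for the endocrine cells and 6349 to 10646 and 2221 to 2406 for the acinar cells. Of 15 mesenchyme markers 6 were higher and 6 lower there, at 12903 to 12977 and 10370 to 11976 CPM. With JTE against control all 10 macrophage markers were lower, at 466 to 505 and 164 to 215 CPM, as were 6 of 7 mesothelium markers, at 205 to 239 and 122 to 141, 8 of 12 epithelium markers, at 4206 to 4684 and 2834.5 to 3342, 7 of 10 endothelium markers, at 624 to 776 and 476 to 538, and all 8 endocrine markers, at 5258 to 5852.5 and 1328 to 1596. Of 8 tested acinar markers 1 was higher and 1 lower, at 45109 to 57834 in control and 45175 to 76086 in JTE, where JTE 3 was the lowest. Of the mesenchyme markers 3 were higher and 5 lower, at 11186 to 12329.5 and 11824 to 15169, and of 8 mural and smooth muscle markers 1 was higher and 5 lower. With JTE + CTGF against control all 10 macrophage and 6 of 7 mesothelium markers were lower again. With CTGF added to JTE 5 of 8 erythroid markers were higher, at 16.8 to 48.5 and 100.2 to 170.0 CPM. From wt to control all 8 erythroid markers were lower, at 1202 to 1430 and 13.2 to 35.3, and 8 of 10 macrophage markers were higher, at 227 to 242 and 466 to 505. Likewise 8 of 12 epithelium markers and 7 of 8 acinar markers were higher, and 5 of 7 mesothelium markers were lower, at 259 to 281 and 205 to 239. Of 8 endocrine markers 3 were higher and 2 lower, at 2414 to 2678 and 5258 to 5852.5. Of 8 neural crest and Schwann cell markers at most 2 rose and at most 2 fell in any of these comparisons. No marker was at 0 in all libraries of a group. The part of these cell types in the values of the IGF genes was not tested.

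The genes most like each member other than Igfbp7 over all 15 libraries, by Pearson correlation of log2 CPM, which share libraries, depth and group structure, were the following. Igfbp2 was closest to Trim59 (0.994), Tubb5 (0.992) and Thg1l (0.99), and Igf1 to Bard1 (0.992), E2f7 (0.99) and Hunk (0.99). Igf1r was closest to Huwe1 (0.985), Atad2b (0.982) and Ncoa2 (0.981), and Igf2 to Zeb2 (0.977), Adgrl1 (0.973) and Zfp518b (0.971). Igf2r was closest to Rbsn (0.972), Dpy19l3 (0.967) and Zyg11b (0.956), Igfbp5 to Stxbp4 (0.968), Dchs1 (0.963) and Tanc1 (0.96), and Igfbp4 to Prkaca (0.964), Mfap2 (0.951) and Samd14 (0.946). Igfbp3 was closest to Pik3cg (0.955), Tuba1a (0.943) and Ccl9 (0.938). The lowest values were those of Igfbp1, with Sgce (0.826), Fhit (0.819) and 1600012H06Rik (0.806).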

How the data were processed

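Poly(A) RNA of 15 samples in 5 groups of 3 was sequenced by the study as single-end, strand-specific libraries, each made from pooled organs or explants and treated as an independent sample. The authors aligned the reads to mm10 with GSNAP and deposited raw read counts per Ensembl gene of uniquely aligned reads, counted with featureCounts 1.4.6, together with the exon length of each gene. These counts carry no normalisation, and each column is 1 library. The sources used here do not give the strand setting of the counting, and no label gives a sequencing date or batch. The sample titles gave the group and replicate number. Symbols came from GENCODE M21 and were found for 24750 genes (97.9%), and positions are the span of the exons in the count table. Promoter windows came from RefSeq for GRCm38.p6.

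The counts of all 15 libraries were fitted together in R 4.3.3 with edgeR 4.0.16 (quasi-likelihood F-test, TMM factors, filterByExpr, 1 coefficient per group), with Benjamini-Hochberg adjustment over 16245 genes. TPM were computed from counts and exon lengths, and marker sums are CPM. DESeq2 1.42.0, RLE and upper-quartile factors, no filter, a fit of only the libraries compared, a replicate block, the criterion of the study and leaving out each library were tried as alternatives. Plots were drawn with matplotlib 3.10.9 in Python 3.11.15. With 3 libraries per group and 11402804 to 13828737 reads per library, p-values set a difference between groups against the spread between libraries. That spread was estimated over all 15 libraries and lies between pools, not between single embryos. Intervals are 95% intervals of the fit. The members, lists and motifs were chosen with earlier results of these data known. All members are named. Of the signalling and FoxO lists, up to 3 genes per comparison with the largest called change and over 100 normalised reads in either group could be named, and any gene of the IGF axis list. Alb, Afp and the GC box were added after their values were seen. The genes most like Igfbp7 are not reported here.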

Additional observations from a re-analysis of the deposited data

Results flagged for a closer look

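The change with JTE against control differed from the change in the libraries labelled S1pr2 null against wt for 7 of the 10 IGF genes, by the test of the difference itself in the edgeR fit over all genes, in which 21.5% of all genes tested had a higher and 21.5% a lower change. The JTE change minus the label change was −0.60 on the log2 scale for Igf1 and −0.29 for Igf2. It was 0.58 for Igf2r. Among the binding protein genes it was −2.04 for Igfbp2, −1.88 for Igfbp3, −0.59 for Igfbp4 and 0.44 for Igfbp7. For Igfbp2 and Igfbp3 the 3 libraries labelled S1pr2 null all lay above the 3 wt libraries, and the 3 JTE libraries all lay below the 3 control libraries. The explants and the fresh pancreata also differ in culture, age and the part of the organ, which cannot be told apart from the antagonist.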

How the results depend on the processing

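Over 6 other fits, 353 of 360 values of the IGF genes kept their direction and their side of the threshold, 5 lost their call and 2 gained one, and none changed direction. The criterion of the study (adjusted p of at most 0.1, over 100 normalised reads in either group and a fold below 0.6 or above 1.6) called fewer genes by its construction. Here its cut-offs were set on the edgeR fit and its normalised reads, whereas the study used DESeq2 for both. It left 1 gene higher and 1 lower in the libraries labelled S1pr2 null, 1 higher and 2 lower with JTE, 0 higher and 4 lower with JTE + CTGF against control, 0 higher and 1 lower with CTGF added to JTE, and 2 higher and 1 lower from wt to control. Without 1 library at a time, the count of genes higher with JTE + CTGF against control lay between 1 and 3, with 1 gene left without control 1, control 2 or JTE + CTGF 2. With 1 library left out, small differences that were not called changed sign. In the libraries labelled S1pr2 null these were Igf1 (−0.045 to 0.115) and Igfbp1 (−0.313 to 0.0846), with JTE + CTGF against control Igfbp5 (−0.182 to 0.021), and in the difference between antagonist and label Igf1r (−0.0022 to 0.104) and Igfbp1 (−0.398 to 0.0172). With the replicate number as a block, Igf2 in the libraries labelled S1pr2 null was 0.17 with an adjusted p of 0.0523, and no other call of the IGF genes changed under the replicate block. Libraries of the same number did not deviate together in every pair, so the numbers were not taken to pair the libraries. Genes with few reads, here Igfbp1 with 8 to 45 reads, are limited by depth.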
